A study of Homo sapiens with 68 samples.

Results

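MIR17HG is the host gene of the miR-17-92 cluster, a single primary transcript on chromosome 13 from which 6 microRNA hairpins are cut. The peaks described here are those that carry the MIR17HG gene identifier (ENSG00000215417) or lie on the plus strand of chromosome 13 between 92000000 and 92007000 (hg19). They number 1052 of the 15800601 peaks listed in the series, 927 under the MIR17HG identifier and 125 under the identifiers of 6 microRNA genes. Every one of the 44 crosslinked antibody libraries and every one of the 16 libraries without crosslinking had at least 1 such peak, as did 4 of the 8 gel-region libraries.

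In the nucleus the enzyme Drosha cuts each hairpin out of a primary microRNA transcript, and in the cytoplasm Dicer trims the hairpin to a short duplex, of which 1 strand is loaded into an Argonaute protein. hnRNPA1 is an abundant nuclear RNA-binding protein that shuttles to the cytoplasm, acts in splicing and is known from earlier work to bind the terminal loop of the miR-18a hairpin and to promote its cutting by Drosha. hnRNP C binds uridine runs in nascent transcripts, hnRNPI (also called PTBP1) binds pyrimidine-rich RNA, and RBFOX2 binds GCAUG and regulates splicing.

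The libraries were made with TLC-CLIP, in which ultraviolet light joins proteins to the RNA they touch, an antibody pulls down 1 protein, and the attached RNA fragments are sequenced. All came from HEK293T, a human embryonic kidney cell line, in 34 groups of 2 replicates, and the pulled-down proteins were RBFOX2 (with an antibody named RBM9), hnRNPI, hnRNP C, written hnRNPc in group names, and hnRNPA1. Crosslinked hnRNPA1 was prepared in 4 ways, each from 50000 cells: lowRNase (0.005 U RNase with PAGE, a gel purification), mediumRNase (0.025 U with PAGE), noPAGE (0.005 U, gel step omitted) and noPAGE_RecJ (the same with RecJ added, which the series describes as additional adapter removal). The lowRNase, noPAGE and noPAGE_RecJ preparations exist for all 4 proteins, and these 24 libraries are compared below. Libraries without crosslinking (noUV) exist for each protein with and without PAGE at 0.005 U. hnRNP C was also profiled in mediumRNase (0.025 U) and in preparations titled 10k (10000 cells, 0.001 U) and 1k (1000 cells, 0.0001 U). Further hnRNP C preparations were titled 5k and 500, each noPAGE with and without RecJ at 0.005 U. Slices of the gel from 50 to 250 kDa were also taken for hnRNP C. RBFOX2 was profiled in preparations titled 10k and 1k with the same doses as hnRNP C. The libraries titled 5k and 500 carry a cell number of 50000 in their labels, which goes against their titles. The noUV libraries are known as such from their titles and the series description, since every sample carries 1 protocol text that describes crosslinking. Nothing in the labels says that replicates came from separate cultures, so the p-values measure the spread between these libraries, which may be technical.

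The mature microRNAs named most often below are shown with their seeds, bases 2 to 8, in capitals, since the seeds define the families within the cluster (sequences from RefSeq, GRCh38.p14). They are given 5′ to 3′.
miR-17-5p: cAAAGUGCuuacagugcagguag
miR-20a-5p: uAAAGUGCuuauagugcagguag
miR-18a-5p: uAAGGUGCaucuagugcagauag
miR-19a-3p: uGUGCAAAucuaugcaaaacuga
miR-19b-3p: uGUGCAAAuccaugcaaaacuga
miR-92a-3p: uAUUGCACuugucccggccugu
miR-17-5p and miR-20a-5p share 1 seed, and miR-19a-3p and miR-19b-3p share another. The miR-18a hairpin is shown because the hnRNPA1 peaks described below lie on it, with capitals for the bases between its 2 mature arms.
MIR18A hairpin: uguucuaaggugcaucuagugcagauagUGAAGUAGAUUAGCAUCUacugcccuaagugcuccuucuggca

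The lists pair no gene symbols with the 6 microRNA identifiers, so these were matched by spacing. Many peaks under these identifiers were 20 to 26 nt wide, the length of a mature microRNA. For 4 identifiers the commonest right edges of such peaks lay 0, 138, 321 and 454 nt from the first of them, which are exactly the RefSeq distances between the 3′ ends of miR-17-5p, miR-18a-5p, miR-19a-3p and miR-20a-5p. The other 2 identifiers, taken as MIR19B1 and MIR92A1, were placed by the extent of their peaks, which lay inside the hairpin expected at that spacing.

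The level of a library at the locus is its share: the read numbers of the locus peaks per 1000000 read numbers of all peaks in that library's list. Peaks less than 30 nt apart were joined and counted once at their highest read number. The lists of the 24 compared libraries held from 3268 to 523402 peaks, with total read numbers from 36106 to 8132138 after joining. One library stood apart, hnRNPc_50k_lowRNase replicate 1, with the lowest of both and only 2 peaks in the locus. The number of sequenced reads is unknown, and a list holds only what its caller kept, so a missing peak is written as not listed.

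hnRNPA1 was steady across its preparations at the whole locus. Its shares were 247.4 and 279.5 in lowRNase, 226.5 and 251.1 in noPAGE, 212.9 and 212.4 in noPAGE_RecJ, and 230.6 and 209.9 in mediumRNase. All 8 libraries thus lay between 209.9 and 279.5. Each held 16 to 24 peaks in the locus.

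hnRNPI was far lower at the locus than hnRNPA1. It had shares of 25.9 and 35.1 in lowRNase, 22.7 and 23.9 in noPAGE, and 21.9 and 24.3 in noPAGE_RecJ. All hnRNPA1 libraries lay above all hnRNPI libraries in each of the 3 preparations. The mean difference was 3.18 on the log2(share + 1) scale (SE 0.08, 6 against 6 libraries), a 9.05-fold difference on that scale. An exact two-sided permutation test within preparations gave p = 0.00926, the smallest its 216 relabellings allow, and 0.0111 after Benjamini-Hochberg adjustment over the 6 tests of hnRNPA1 against the other proteins. The same separation was found for 36.6% of the 14808 genes with peaks in at least 6 of the 12 libraries, and the opposite one for 30.8%, so separation as such is common. In size, the MIR17HG difference exceeded that of 95.3% of those genes, whose median difference was 0.07. Counted as peaks per 100000 listed peaks in place of reads, the difference was 0.25 and no longer passed (exact permutation p = 0.0833).

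RBFOX2 was higher at the locus than hnRNPA1. It had shares of 348.3 and 399.6 in lowRNase, 455.3 and 519.2 in noPAGE, and 445.3 and 433.8 in noPAGE_RecJ. All hnRNPA1 libraries lay below all RBFOX2 libraries in each preparation, as they did for 29.0% of 14752 genes, while 44.6% had them all above. The difference was -0.86 (SE 0.06, n = 6 and 6; exact permutation p = 0.00926, adjusted p = 0.0111). The median gene differed by 0.64 in the other direction, and 29.0% of genes had a difference below that of MIR17HG. Measured by the percentile of the highest locus peak within each library, hnRNPA1 was higher, by 0.71 percentage points (exact permutation p = 0.00926).

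Against hnRNP C the locus share of hnRNPA1 did not pass the test. hnRNP C had shares of 498.5 and 151.8 in lowRNase, 137.9 and 100.5 in noPAGE, and 143.4 and 113.0 in noPAGE_RecJ. In mediumRNase, which is outside the test, it had 99.0 and 106.9. The value of 498.5 belongs to the shallow replicate 1 and rests on 18 reads in 2 peaks. hnRNPA1 lay above hnRNP C in noPAGE and noPAGE_RecJ, and the groups overlapped in lowRNase. The difference was 0.56 (SE 0.30; exact permutation p = 0.120, adjusted p = 0.120). Leaving out hnRNPc_50k_lowRNase replicate 1 gave 0.85 (exact permutation p = 0.00926). With peaks of p below 1e-05 it was 2.14 and with no joining 0.86, both past the threshold (exact p = 0.00926 and 0.0278), and with peaks counted in place of reads it turned to -0.67 (exact p = 0.167). Across 14198 genes, 32.5% had all hnRNPA1 libraries above all hnRNP C libraries in each preparation, 4.29% had them all below, and MIR17HG was in neither set. Its difference lay below the median gene's 0.90.

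**Figure D1:**
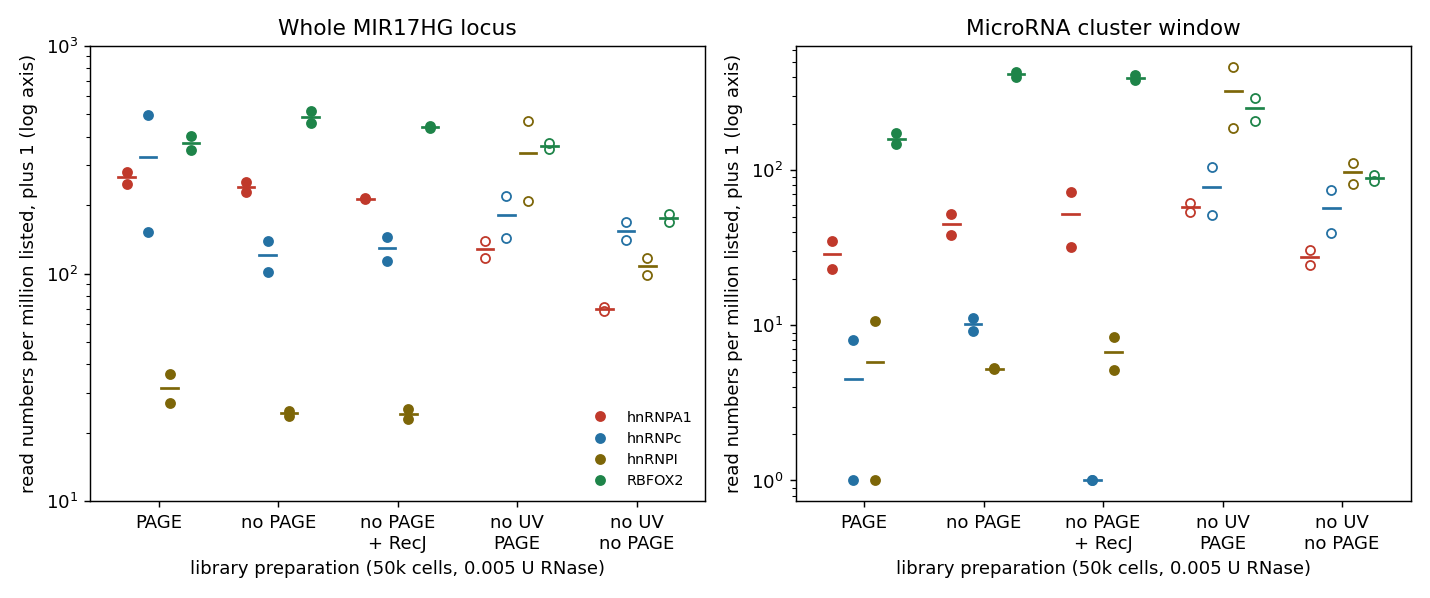
Share of the locus (left) and of the microRNA cluster window (right) in each library, plus 1 on log axes, by preparation and protein. Points are libraries (open: no crosslinking), bars are means of 2; crosslinked hnRNPA1 libraries lie between hnRNPI and RBFOX2 in both panels.

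Near the hairpins, in the crosslinked libraries compared, hnRNPA1 stood above hnRNP C and hnRNPI and below RBFOX2. The window used is 92002500 to 92004000, which holds the 6 hairpins and flanks. hnRNPA1 had window shares of 22.0 and 33.8 in lowRNase, 37.2 and 51.3 in noPAGE, and 30.9 and 72.0 in noPAGE_RecJ. The mediumRNase libraries, which have no counterpart for hnRNPI or RBFOX2, had 43.7 and 45.4. Those of hnRNP C in mediumRNase had 0 and 10.5. No hnRNPA1 library was without a peak there. In noPAGE_RecJ replicate 2 a joined peak that starts inside the window reaches its highest read number past it, and from peaks whose own inner interval lies in the window the share of that library was 47.2 in place of 72.0. The other 5 compared hnRNPA1 libraries had the same share both ways.

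hnRNP C had window shares of 0 and 7.1 in lowRNase, 10.2 and 8.2 in noPAGE, and 0 and 0 in noPAGE_RecJ. Thus 3 of its 6 libraries listed no peak in the window, among them the shallow lowRNase replicate 1. In these preparations hnRNPA1 was higher than hnRNP C by 3.68 on the log2 scale (SE 0.56, n = 6 and 6, exact permutation p = 0.00926, adjusted p = 0.0111). Of the other crosslinked hnRNP C preparations apart from gel slices, 10k (14.0 and 20.2) and 1k (14.4 and 27.9) had the highest window shares. hnRNPI had 0 and 9.7, 4.2 and 4.3, and 4.2 and 7.4 in the same order of preparations. Against it, hnRNPA1 was higher by 3.02 (SE 0.63; exact permutation p = 0.00926, adjusted p = 0.0111), although with peaks counted in place of reads the difference was -0.41 (exact p = 0.120). With at least 50% of a joined peak required inside the window, the differences were 2.55 against hnRNP C and 1.89 against hnRNPI (exact permutation p = 0.00926 for both). Pseudocounts of 0.1 and 5 gave 5.38 and 2.41 against hnRNP C, which has libraries at 0. By the window share, all hnRNPA1 libraries lay above those of both proteins in each preparation. How often other windows of this size separate so was not computed. For whole genes it was 32.5% against hnRNP C and 36.6% against hnRNPI.

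RBFOX2 had window shares of 145.9 and 172.5 in lowRNase, 398.4 and 432.7 in noPAGE, and 381.5 and 410.8 in noPAGE_RecJ, above every hnRNPA1 library. Among whole genes, 29.0% had all hnRNPA1 libraries below those of RBFOX2 in each preparation. The difference for hnRNPA1 was -2.92 (SE 0.24, n = 6 and 6; exact permutation p = 0.00926, adjusted p = 0.0111). The window held a median of 84.5% of the RBFOX2 locus share (41.9% to 94.7%), as against 15.5% for hnRNPA1 (8.89% to 33.9%), 2.34% for hnRNP C (0% to 8.15%) and 18.8% for hnRNPI (0% to 30.4%). Most of the hnRNPA1 share thus lay outside the window. By the percentile of the highest window peak, hnRNPA1 was higher than RBFOX2, by 0.65 percentage points (exact permutation p = 0.00926). With at least 50% of a joined peak inside the window the difference in shares was -3.98 (exact permutation p = 0.00926).

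The window mixes the hairpins with the RNA before and past them, and these parts were separated by where the highest peak of each joined peak has its inner interval, a division chosen after the peaks were seen. The span from the first to the last hairpin is 787 nt. Within it, hnRNPA1 had shares of 22.0 and 21.4 in lowRNase, 13.3 and 13.8 in noPAGE, and 11.9 and 14.3 in noPAGE_RecJ. In all 6 libraries this was the share of 1 site, that of miR-18a. The rest of the hnRNPA1 window share, from 0 to 57.7, had its highest peak past the last hairpin. RBFOX2 had 0 to 70.8 before the hairpins (median 52.9), where all 6 hnRNPA1 libraries had 0, then 63.2 to 175.9 within the span and 69.9 to 207.8 past it. Confined to the span, the difference between hnRNPA1 and RBFOX2 was -2.89, that between hnRNPA1 and hnRNP C 3.13 and that between hnRNPA1 and hnRNPI 1.89 (exact permutation p = 0.00926 for each).

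At miR-18a, all 8 crosslinked hnRNPA1 libraries listed a peak under the MIR18A identifier. The peaks were 42 to 54 nt wide (median 48.5 nt), from 92003015 to 92003020 at the left edge and from 92003056 to 92003069 at the right. None of the 8 had the length of a mature microRNA. Measured from the 3′ end of miR-18a-5p, they began 17 to 12 nt before it and ended 24 to 37 nt past it. The mature arms are 23 nt each with 18 nt between them, and the 3p arm ends 41 nt past the 5p arm. Every hnRNPA1 peak under this identifier therefore covered the end of the 5p arm, all bases between the arms (capitals in the hairpin above) and the start of the 3p arm. The read numbers of these peaks were 63 and 70 in lowRNase, 92 and 113 in mediumRNase, 40 and 55 in noPAGE, and 28 and 56 in noPAGE_RecJ.

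The same site was also listed under the MIR17HG identifier in all 8 hnRNPA1 libraries, with other edges and read numbers. These peaks had 139 and 129 reads in lowRNase, 98 and 122 in mediumRNase, 101 and 112 in noPAGE, and 77 and 106 in noPAGE_RecJ. That of noPAGE_RecJ replicate 1 ran from 92002994 to 92003040 and ended among the bases between the arms. The others covered all of these bases. A site share takes the higher of both listings. Only peaks whose inner interval lies within the extent of all peaks under the microRNA identifier are counted, here 92003009 to 92003069. That extent was read from these libraries, hnRNPA1 included, and other MIR17HG peaks that reach over the hairpin are left out. Listings of a site under any identifier follow the same limit.

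**Figure D2:**
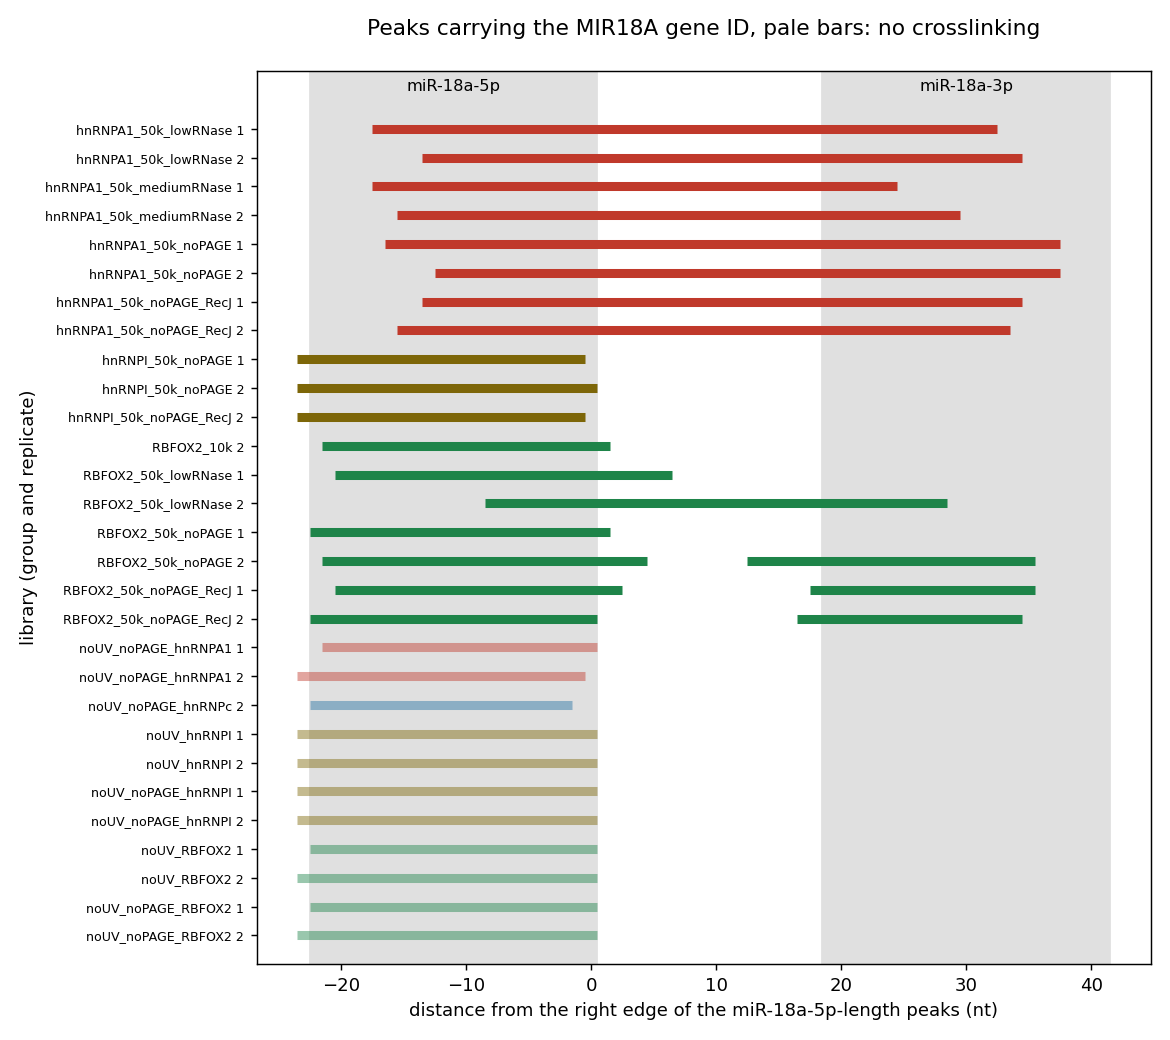
Extent of each peak under the MIR18A identifier (abutting peaks merged), 1 row per library, as the distance in nt from the 3′ end of miR-18a-5p. Grey bands are the mature arms and pale bars are libraries without crosslinking. The 8 hnRNPA1 rows at the top span the 18 nt between the arms, while peaks without crosslinking cover the 5p arm.

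Under the MIR18A identifier the crosslinked libraries of the other proteins had no peak or narrower ones. hnRNP C had no peak under the MIR18A identifier in any of its 20 crosslinked libraries. hnRNPI had one in 3 of 6 crosslinked libraries, 23 to 24 nt wide with 8 to 12 reads, on the 5p arm, and 5 of 6 listed the site under any identifier. RBFOX2 had one in 7 of 10 crosslinked libraries, in 10 merged peaks of 18 to 37 nt and 15 to 64 reads. The 3 libraries without one were RBFOX2_10k replicate 1 and both RBFOX2_1k libraries, made with less RNase and fewer cells, and in the 3 preparations compared RBFOX2 had one in 6 of 6 libraries, as hnRNPA1 did. Among the RBFOX2 libraries, 3 had separate peaks on both arms, and RBFOX2_50k_lowRNase replicate 2 had a peak from 8 nt before to 28 nt past the end of the 5p arm, which also covers the bases between the arms.

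By the site share at miR-18a, hnRNPA1 lay above hnRNP C and hnRNPI and overlapped RBFOX2 in noPAGE and noPAGE_RecJ. Taking the highest read number at the site as a share, hnRNPA1 had 11.9 to 22.0 in the 6 compared libraries and RBFOX2 had 6.9 and 5.6 in lowRNase, 12.1 and 15.7 in noPAGE, and 12.8 and 29.7 in noPAGE_RecJ. The difference was 0.36 on the log2(share + 1) scale (exact permutation p = 0.259), in the other direction from that of the window. For hnRNP C the site share was 0 in all 6 libraries, and for hnRNPI it was 0 to 4.0. The inner-interval limit left out some MIR17HG peaks within 92002959 to 92003075, the stretch around miR-18a. Such a peak had a share of 7.1 in hnRNPc_50k_lowRNase replicate 2. In RBFOX2_50k_lowRNase such peaks had 26.9 and 22.1, against hnRNPA1 site shares of 22.0 and 21.4. The direction against RBFOX2 in lowRNase thus depends on that limit. The difference with these peaks counted was not computed. The site was chosen, and its extent drawn, from these same peaks, hnRNPA1 included. These values and their p are therefore a description and cannot test a difference between proteins.

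At the other 5 hairpins crosslinked hnRNPA1 had almost no listed peak. A single library, hnRNPA1_50k_mediumRNase replicate 1, had one at MIR17, 24 nt wide with 9 reads, and none of the 8 had a peak at the sites of MIR19A, MIR20A, MIR19B1 or MIR92A1 under any identifier. Under the microRNA identifiers, RBFOX2 was listed at MIR17 in 6, at MIR19A in 4, at MIR20A in 7, at MIR19B1 in 3 and at MIR92A1 in 6 of 10 crosslinked libraries. hnRNPI was listed under them at MIR17 in 1, at MIR19A in 1 and at MIR20A in 2 of 6 libraries. With peaks under the MIR17HG identifier at the same sites included, hnRNPI had MIR17 in 3, MIR19A in 2 and MIR20A in 5 of 6 libraries, at 6 to 12 reads, and RBFOX2 had MIR19A in 5 of 10 and the other 4 as often as before.

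**Figure D3:**
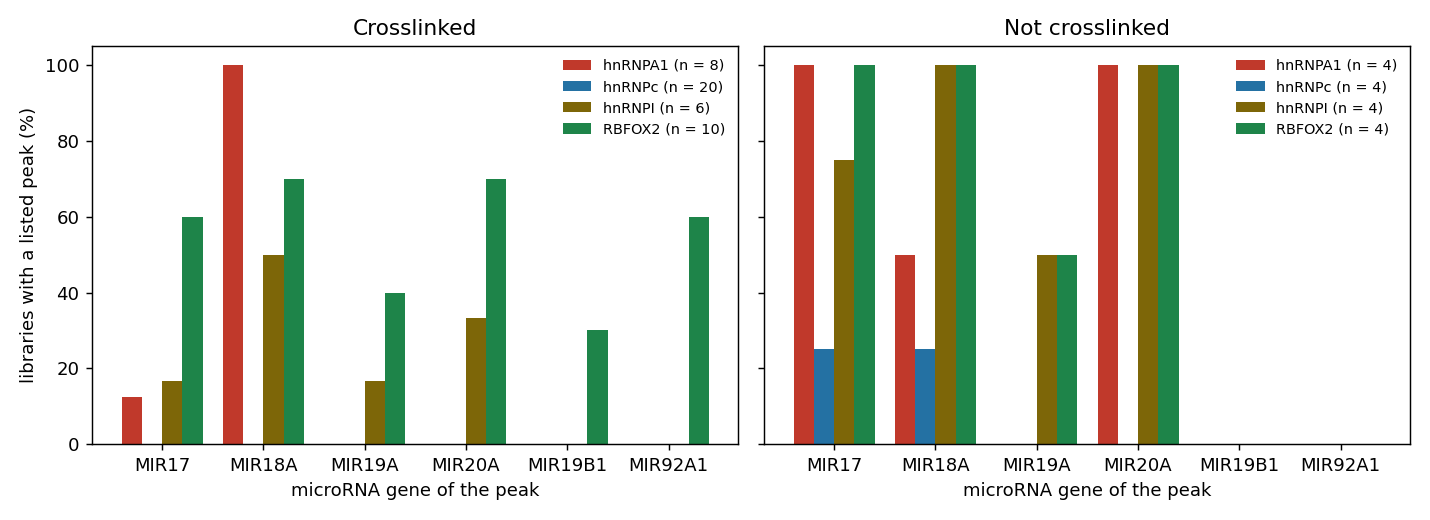
Percentage of libraries with a listed peak under each microRNA gene identifier (peaks under the MIR17HG identifier not counted), for crosslinked (left) and not crosslinked (right) libraries of each protein; n is the number of libraries. Crosslinked hnRNPA1 has 100% at MIR18A and 12.5% at MIR17, and without crosslinking it has 100% at MIR17 and MIR20A and 50% at MIR18A.

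Without crosslinking, hnRNPA1 was listed at miR-17, miR-18a, miR-19a and miR-20a alike, in 4 of 4 libraries each when peaks under any identifier are counted. Under the microRNA identifiers alone, all 10 merged peaks of the 4 libraries were of mature length. MIR17 and MIR20A were listed in 4 of 4 libraries and MIR18A in 2 of 4, where it was 22 and 23 nt wide with 9 and 10 reads. At the miR-18a site under the MIR17HG identifier, the 4 libraries had peaks of 3 and 21 nt with PAGE and 68 and 28 nt without, at 9, 10, 18 and 14 reads. Over all proteins, 38 of 39 merged noUV peaks under a microRNA identifier (97.4%) were 20 to 26 nt wide, against 27 of 52 (51.9%) in crosslinked libraries. Some of these widths join 2 or 3 shorter listed peaks. Among crosslinked libraries the count was 1 of 9 for hnRNPA1, 19 of 36 for RBFOX2 and 7 of 7 for hnRNPI. RBFOX2 and hnRNPI without crosslinking were listed on the miR-18a-5p arm in 4 of 4 libraries each.

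The whole-locus share of hnRNPA1 was higher in the crosslinked than in the noUV libraries. The noUV libraries had 137.9 and 116.5 with PAGE and 70.1 and 67.2 without PAGE, below all crosslinked libraries of the matching preparation. How many genes separate noUV from crosslinked libraries in this way was not computed, here or for the window and site values below. The difference was 1.41 (SE 0.08, 4 against 4 libraries; exact permutation p = 0.0556, the smallest that 36 relabellings allow). Counted as peaks per 100000 listed peaks, it was -1.16. In the cluster window the preparations went in opposite directions, and in the hairpin span noUV lay above crosslinked in both. The noUV shares of 60.3 and 53.3 with PAGE were above the crosslinked ones, and those of 23.5 and 29.6 without PAGE were below, giving -0.16 in all (SE 0.21; exact permutation p = 0.722), with -1.03 and 0.71 in the PAGE and noPAGE strata. That value depended on what was counted. It was 1.12 with the window widened by 500 nt on each side and positive with 4 other alternatives, and it was -0.97 with 50% of a joined peak inside and -2.04 as peaks per 100000 (exact permutation p = 0.0556 for these 3). Within the span of the hairpins the noUV shares were 42.1 and 34.6 with PAGE and 17.8 and 19.7 without, against crosslinked shares of 22.0 and 21.4 and of 13.3 and 13.8, a difference of -0.61 (exact permutation p = 0.0556). At the miR-18a site, chosen after the peaks were seen, the noUV shares were 3.7 and 4.9 with PAGE and 5.7 and 3.8 without. Each lay below every crosslinked hnRNPA1 library, a difference of 1.73 (exact permutation p = 0.0556), given as a description. The noUV lists of hnRNPA1 held 146915 to 196278 peaks against 499537 to 523402 in the crosslinked libraries compared, and the part of this depth gap in the result was not tested. The labels do not say whether the noUV and crosslinked libraries were made together, so a batch of that kind and the absence of crosslinking cannot be told apart.

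For the other proteins the change with crosslinking went in several directions at the locus. hnRNPI was lower with crosslinking, at differences of -3.33 with PAGE and -2.15 without, from noUV shares of 466.0 and 208.3 with PAGE and 116.5 and 97.5 without. Its 2 noUV lists with PAGE held 18690 and 36809 peaks. RBFOX2 was higher with crosslinking by 1.47 without PAGE, and with PAGE its libraries overlapped, at a difference of 0.04. hnRNP C was lower with crosslinking without PAGE, at -0.37. With PAGE its libraries, the shallow lowRNase replicate 1 among them, overlapped at a difference of 0.64. In the window with PAGE, crosslinked libraries of hnRNP C, hnRNPI and RBFOX2 lay below noUV ones, at -4.69, -6.50 and -0.63. Without PAGE the differences were -2.41, -4.19 and 2.22. RBFOX2 had noUV window shares of 206.7 and 293.4 with PAGE and 92.2 and 84.4 without. At the miR-18a site its noUV shares were 64.0 and 55.7 with PAGE and 22.1 and 26.9 without. These lay above its crosslinked site shares of the matching preparation. Each of these compares 2 with 2 libraries, which allows no p under 0.05.

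Along the transcript, hnRNPA1 reads concentrated past the cluster. In 500 nt bins under the MIR17HG identifier, the median share of the 6 compared hnRNPA1 libraries was highest at 92004001-92004500 (44.5), 92006001-92006500 (43.1) and 92004501-92005000 (39.0). The highest hnRNPA1 peak in the lowRNase and noPAGE libraries was at 92006392-92006532 with 218 reads and at 92004262-92004409 with 311 reads in lowRNase, and at 92006362-92006546 with 332 reads and at 92006409-92006547 with 378 reads in noPAGE. Upstream of the cluster, the bin from 92002001 to 92002500 held a peak in all 6 libraries (median 20.2).

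RBFOX2 and hnRNP C had their highest bin elsewhere, and hnRNPI did not. RBFOX2 was highest at 92003501-92004000 (175.8) and 92004001-92004500 (129.7), directly at and past the last hairpin. The latter is also the highest bin of hnRNPA1, at 44.5. hnRNP C was highest at 92005501-92006000 (25.2) and 92005001-92005500 (25.0), where hnRNPA1 had 16.9 and 9.6. hnRNPI did not exceed a median of 5.2 in any bin. Its highest was 92004501-92005000, a bin also among the highest of hnRNPA1.

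Regions joined over all 68 libraries show where listings recur. The region found in most libraries was 92001259-92001958, in 54 libraries and in 6 of 8 crosslinked hnRNPA1 libraries. hnRNPA1 was listed in 8 of 8 libraries at 92001959-92002351, 92002959-92003075 (which holds miR-18a), 92003639-92004810, 92005379-92006271 and 92006344-92006701. The region that holds miR-18a was also listed in 10 of 10 RBFOX2, 5 of 6 hnRNPI, 3 of 20 hnRNP C and 13 of 16 noUV libraries, and that at 92003639-92004810 in 10 of 10 RBFOX2, 6 of 6 hnRNPI and 16 of 20 hnRNP C libraries. The regions 92003182-92003320 and 92003321-92003350, over the miR-19a and miR-20a hairpins, held no peak of any crosslinked hnRNPA1 library and peaks of 9 and 7 of the 10 RBFOX2 libraries.

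**Figure D4:**
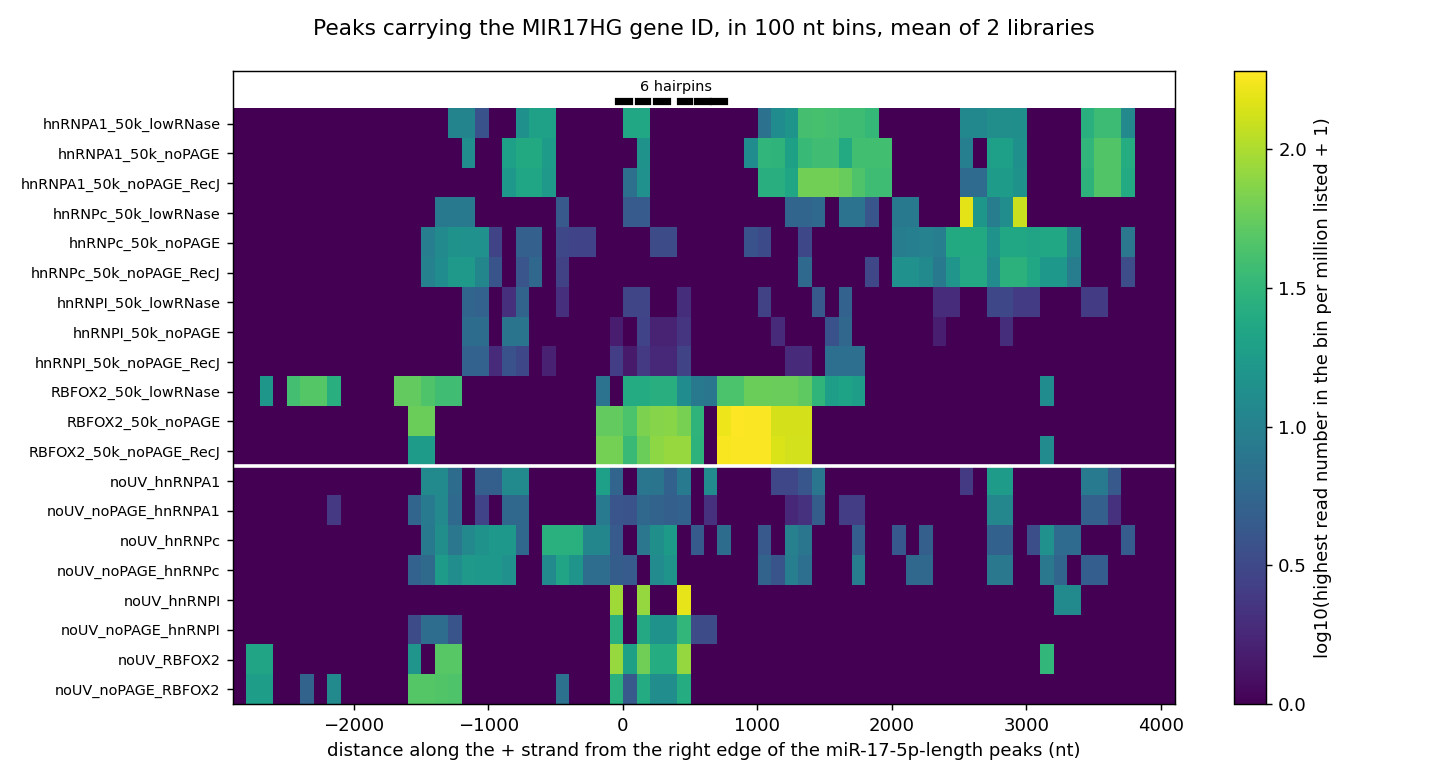
Peaks under the MIR17HG identifier in 100 nt bins, as log10(share of the highest read number + 1), mean of 2 libraries per row; the horizontal axis is the distance in nt from the 3′ end of miR-17-5p and black bars are the 6 hairpins. hnRNPA1 rows have a mark at the second hairpin and broad signal past the cluster, and RBFOX2 rows are brightest over and just past the hairpins.

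Between its own preparations, hnRNPA1 differed less at the locus than in the window. Omitting PAGE gave a locus difference of -0.14, adding RecJ -0.16 and medium RNase -0.26 on the log2 scale, with replicate SDs of 0.11, 0.07 and 0.11. In the window the same steps gave 0.66, 0.11 and 0.69, with replicate SDs of 0.38, 0.64 and 0.30. Each is 2 libraries against 2. The RecJ value in the window was -0.49 without noPAGE_RecJ replicate 2 and -0.12 without noPAGE replicate 1.

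The gel slices held few peaks of the locus. They were hnRNP C pulldowns from 10000 cells at 0.001 U, with lists of 303 to 6716 peaks, and the locus peaks in the 4 libraries that had any held 6 to 8 reads each. At 75 to 100 kDa both libraries had 1 peak of 7 reads. At 100 to 150 kDa the only such peak, of 6 reads, lay in the cluster window.

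Across the 24 compared libraries, the 2 gene identifiers whose shares varied most like that of MIR17HG were ENSG00000124193 and ENSG00000152795 (Pearson r of log2(share + 1) 0.979 for both, highest of 13897 genes). The former had median shares of 155.1 for hnRNPA1, 141.5 for hnRNP C, 3.0 for hnRNPI and 572.4 for RBFOX2. The 24 points share 4 proteins and 3 preparations, and r is a description only. The MIR18A identifier had an r of 0.62.

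Short motifs known for the 4 proteins were looked for in the 6 RefSeq hairpins, as letters on the transcript strand. UAGG, a motif of hnRNPA1, was in none of the 6 and in 21.3% of 1560 human hairpins. The shorter UAG, which UAGG contains, was in 5 of 6 and in 56.0% of all. MIR18A held it 4 times, with 2 of these between the arms, and MIR92A1 did not hold it. GCAUG (RBFOX2) was in 0 of 6 against 7.24% of all, UUUCU (hnRNPI) in 1 of 6 against 15.5%, and UUUUU (hnRNP C) in 0 of 6 against 8.97%.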

How the data were processed

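The deposited lists, 1 per library, have 8 columns: peak position, name, a p-value, strand and an inner interval. The p-value is the one deposited by the authors' peak caller, CLIPper by the list names, whose settings are not stated. The last number of the name was taken for the peak's read number, which no source states. Per the submitters' processing notes, bcl2fastq, STAR 2.7.3a, UMI-tools 1.0.1 and hg19 were used. The annotation release and any p adjustment: not given in the sources used here. The largest p in the locus was 0.00711 and the smallest read number 5.

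Peaks on 1 strand under 30 nt apart were joined at their highest read number and scaled to each library's total. Tests used log2(share + 1) and exact permutation within preparations, in Python 3.11.15 with numpy 2.4.6 and pandas 2.3.3, and the code was tested on simulated data. The window was counted at an overlap of at least 1 nt. Alternatives were p below 1e-05, no joining, pseudocounts 0.1 and 5, peak counts, percentiles, other windows, and leaving out each library. Regions named are the 10 found in most libraries, with the highest peak of each lowRNase and noPAGE library, and the 2 most similar genes. A list of other microRNA host genes could not be applied, since no identifier matched a symbol (0 matched). The locus, lists and tests were chosen with earlier results of these data known.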

Additional observations from a re-analysis of the deposited data

Results flagged for a closer look

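In 4 comparisons, libraries of different proteins moved in opposite directions under the same change of preparation. The differences between proteins were not tested, since each rests on 2 libraries against 2. Without PAGE the locus share was higher than with it for RBFOX2 and lower for hnRNP C and hnRNPI, with a gap of 1.60 on the log2 scale between RBFOX2 and hnRNP C. The hnRNP C value includes the shallow hnRNPc_50k_lowRNase replicate 1. With PAGE, the locus share was higher in crosslinked than in noUV libraries for hnRNPA1 and lower for hnRNPI, a gap of 4.38. Without PAGE, it was higher in crosslinked libraries for hnRNPA1 and RBFOX2 and lower for hnRNP C and hnRNPI, and the gap between hnRNPA1 and hnRNPI was 3.93. In the cluster window without PAGE the directions were the same, with a gap of 6.41 between RBFOX2 and hnRNPI. The noUV libraries were listed with fewer peaks than the crosslinked ones for hnRNPA1, hnRNPI and RBFOX2, and without PAGE also for hnRNP C. The part of that in these gaps was not tested.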

How the results depend on the processing

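Values are log2 differences unless said otherwise, with exact permutation p. For the locus share of hnRNPA1 minus hnRNP C (0.56), the value was 2.14 at p below 1e-05 (exact p = 0.00926), 0.86 with no joining (exact p = 0.0278), -0.67 with peaks counted per 100000 listed (exact p = 0.167) and 4.22 percentage points as a percentile of the highest peak (exact p = 0.00926). Leaving out each library gave 0.28 to 0.85. Counting peaks gave 0.25 (exact p = 0.0833) for the locus minus hnRNPI, -0.41 (exact p = 0.120) for the window minus hnRNPI and -1.16 for crosslinked minus noUV at the locus. The percentile gave 0.71 percentage points for the locus and 0.65 for the window against RBFOX2, where the shares gave negative differences; the miR-18a site alone gave 0.36 (exact p = 0.259), an alternative added after the data were seen. Crosslinked minus noUV in the window (-0.16) turned to 0.45 at p below 1e-05, 0.13 with no joining, 10.9 percentage points as a percentile, 1.12 with the window widened by 500 nt and 1.73 at the miR-18a site. Leaving out each library gave 3.11 to 3.25, -0.89 to -0.82 and 1.35 to 1.47 for the locus against hnRNPI, RBFOX2 and noUV, and 3.18 to 4.18, 2.45 to 3.59, -3.12 to -2.72 and -0.31 to -0.01 for the window against hnRNP C, hnRNPI, RBFOX2 and noUV. For the hnRNPA1 preparations, omitting PAGE gave -0.30 at p below 1e-05, medium RNase -0.39 with no joining, and adding RecJ in the window -0.43 with no joining, -0.49 without noPAGE_RecJ replicate 2 and -0.12 without noPAGE replicate 1. Counting peaks by their own inner interval, added after the data were seen, gave 3.58, 2.92, -2.97 and -0.16 for the window against hnRNP C, hnRNPI, RBFOX2 and noUV. Genes with hnRNPA1 below hnRNP C in each preparation fell from 609 to 226 at p below 1e-05. The cause of these changes was not tested.

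With the replicate number as a block, the 6 tests kept their side of the threshold. The locus gave 0.56 (exact p = 0.188), 3.18 and -0.86 (exact p = 0.0313 for both) against hnRNP C, hnRNPI and RBFOX2, and the window gave 3.68, 3.02 and -2.92 (exact p = 0.0313 for each). Crosslinked minus noUV gave 1.41 (exact p = 0.125) and -0.16 (exact p = 0.875). Deviations of same-numbered libraries from their group means correlated at -0.01 to 0.03 across 13897 genes in 9 pairs, so the numbers gave no sign of pairing.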
